A study of Mus musculus with 5 samples.

Results

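The genes described here encode the subunits of the proteasome, the protease that degrades proteins tagged with ubiquitin, in cells sorted as parvalbumin-positive from mouse cerebral cortex. The members are all probes of the array whose annotated symbol starts with Psma, Psmb, Psmc, Psmd or Psme followed by a digit, which gave 80 of 45281 probes and 45 of 19057 named genes. Of these, 43 genes with 76 probes are named as proteasome subunits, assembly factors or activators. The symbol rule also took Psmc3ip, a partner in meiotic recombination, and Psme3ip1, a protein that binds an activator, with 4 probes between them; neither is a subunit.

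The proteasome has a barrel-shaped core, built from rings of alpha subunits (Psma genes), which gate the entry, and rings of beta subunits (Psmb genes), some of which carry the protease sites. A regulatory particle of ATPases (Psmc genes), which unfold the substrate, and non-ATPase subunits (Psmd genes), which bind ubiquitin and remove it, caps the core. Activators (Psme genes) open the core without the regulatory particle. In neurons the proteasome turns over synaptic and misfolded proteins, and in the circadian loop it degrades clock repressors.

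Total RNA was measured on single-colour bead arrays in 3 samples labelled WT (PV-GFP; Clock+/+, replicates 1, 2 and 3, at 61, 64 and 64 days of age) and 2 samples labelled KO (PV-GFP; Clock-/-, replicates 1 and 3, at 61 and 60 days). Clock encodes a transcription factor of the circadian loop. All mice were C57BL/6J, all carried the PV-GFP reporter used to sort the cells, and the sampling time was zeitgeber time 16 h throughout, which is counted from lights-on. The labels give neither the promoter behind the reporter nor whether a sample is 1 animal or a pool, so the p-values cover the spread among these 5 samples, which may be technical.

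A probe counted as detected on an array when its deposited detection p, which sets its signal against background, was under 0.05. Between 1978 probes (KO replicate 3) and 3671 probes (WT replicate 1) were detected on an array, where 2264 would be by chance. KO replicate 3 stood apart, with correlations of 0.751 to 0.827 with the other arrays across tested probes, against 0.860 to 0.924 among those. None of the 3 Clock probes was detected on any array, so they do not check the genotype labels. Of 14 markers of parvalbumin interneurons 8 were detected on at least 2 arrays. Gad1, Gad2 and Slc32a1 were detected on all 5 arrays, and Pvalb on 4, all but KO replicate 3. Erbb4, Kcnc1, Kcns3, Lhx6, Syt2 and Tac1 did not reach 2 arrays. Of excitatory neuron markers 0 of 9 were detected, of microglia 0 of 8, of endothelial and mural cells 0 of 8, of astrocytes 1 of 8 (Aldh1l1) and of the oligodendrocyte lineage 1 of 8 (Mbp). By the same limit only 7.39% of all probes were detected, so counts this low do not show that other cell types were absent.

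Most proteasome genes were not above background in these cells, and those that were came from both the core and the regulatory particle. Of the 80 probes, 12 (15%), of 11 genes, were detected on at least 2 of the 5 arrays, against 7.39% of all probes. Detection on all 5 arrays was reached by 3 member probes, those of Psmd4 and Psmd8 and 1 of Psmb7, against 2.29% of all probes. A total of 62 member probes (77.5%) were detected on no array, against 88.6% of all probes, and 30 of the 45 genes had no detected probe at all.

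By role, detection on at least 2 arrays covered 1 of 8 alpha genes (Psma2), 4 of 11 beta genes (Psmb4, Psmb5, Psmb7 and Psmb10), 1 of 6 ATPase genes (Psmc5) and 5 of 14 other regulatory genes (Psmd2, Psmd4, Psmd8, Psmd13 and Psmd14). None of the 4 activator genes Psme1, Psme2, Psme3 and Psme4 had a probe detected on any array, nor had Psmc3ip or Psme3ip1. Of the beta genes, Psmb8 and Psmb9, protease subunits of the immunoproteasome, were detected on no array. Of Psmb10, the third of these, 1 of 2 probes was detected on 4 arrays and the other on none. Psma8, the alpha subunit of the testis, was detected on none.

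A further 4 genes were detected on 1 array only. Psma7, an alpha subunit, and the ATPase gene Psmc2 were detected on WT replicate 1, and the protease subunit Psmb6 and the thymus subunit Psmb11 on KO replicate 3. By chance 4 of the 80 member probes would be detected on an array, so a detection on 1 array does not show expression. KO replicate 3 detected 4.37% of all probes, below the 5% of an array without signal. The last member inside the limit was Psmb7 probe 2, whose second-lowest detection p was 0.04915, and the first outside was a probe of Psmd2 at 0.05128. Of 27 member genes with several probes, 6 had a detected probe by the limit of 2 arrays, and none of the 6 had all its probes detected.

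**Figure D1:**
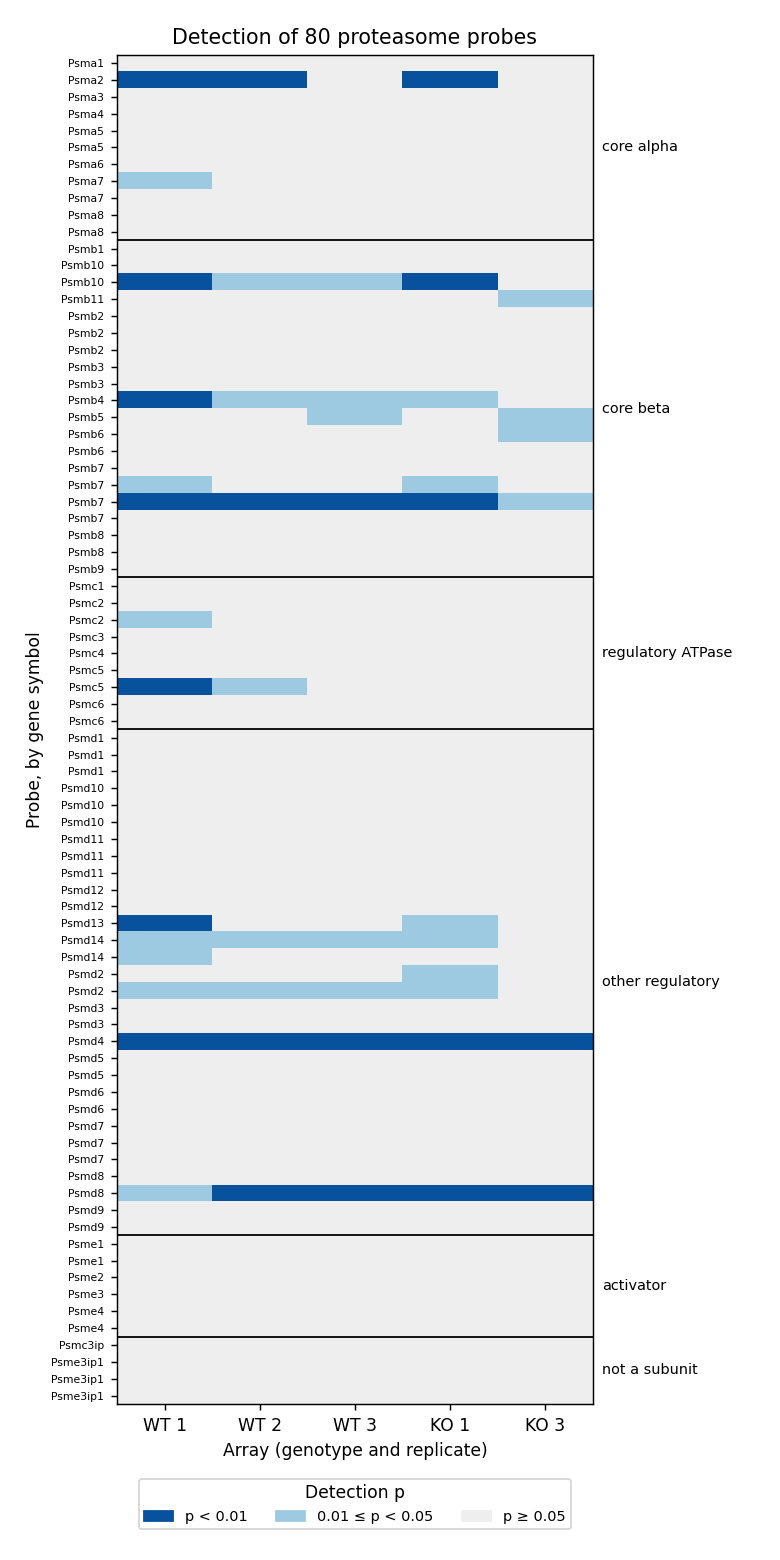
Detection p of the 80 member probes (rows, by gene symbol and class) on the 5 arrays (columns); dark blue stands for p under 0.01, light blue for p under 0.05 and grey for no detection. Only the rows of Psmd4, Psmd8 and 1 Psmb7 probe are coloured on all 5 arrays, and the rows of the activators are grey throughout.

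The number of proteasome probes detected varied among arrays of the same genotype. On WT replicates 1, 2 and 3, 14, 9 and 8 of the 80 probes were detected, which is 17.5%, 11.25% and 10%, against 8.11%, 6.06% and 5.93% of all probes. On KO replicates 1 and 3 the counts were 11 and 6, or 13.75% and 7.5%, against 5.98% and 4.37% of all probes. The proteasome share was above that of all probes on each of the 5 arrays, and KO replicate 1 lay within the WT range. KO replicate 3 had the lowest count of proteasome probes and also of probes of any kind.

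**Figure D2:**
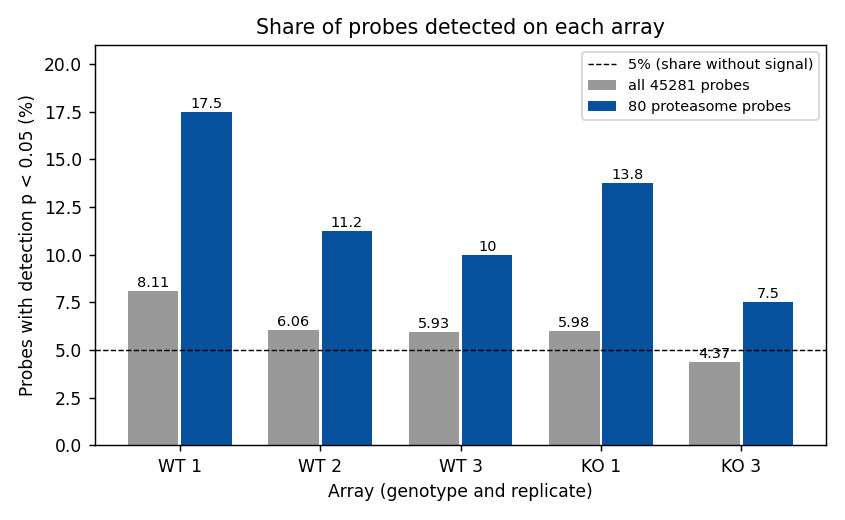
Percent of probes with a detection p under 0.05 on each array, for all 45281 probes (grey) and the 80 proteasome probes (blue); the dashed line marks the 5% that an array without signal would give. The blue bars run from 17.5% on WT replicate 1 to 7.5% on KO replicate 3 and stand above the grey bar of each array.

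Sequences upstream of the gene starts were read for motifs of factors tied to these genes. The factor CLOCK acts with BMAL1 on the E-box (CACGTG, its own reverse complement), and NFE2L1 raises proteasome genes through antioxidant response elements (searched as TGACNNNGC on both strands). RefSeq windows of build GRCm38.p6 were supplied for 38 of the 45 member genes (not for Psma8, Psmb1, Psmb2, Psmb7, Psmc3, Psmd3 and Psmd7), and the 250 bases before the start were searched. The E-box letters were found for 5 of 38 member genes (13.2%; Psma4, Psmb10, Psmd9, Psme3 and Psme3ip1) and for 6.86% of all 27025 genes with a window. The response element letters were found for 5 of 38 (13.2%; Psmb5, Psmb6, Psmc6, Psmd12 and Psmd9) and for 11.5% of all genes. Psmd9 held both, without overlap. Of the 10 detected member genes with a window, Psmb10 alone held the E-box and Psmb5 alone the response element. A match of letters is not a shown binding site, and nothing follows from a missing one.

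Below, Psmb10 and Psmb5 are shown for the motif each holds, in capitals, which lies at bases -116 to -111 from the start in Psmb10 and -47 to -39 in Psmb5. Psmd8 and Psmb4 are shown as detected genes whose KO and WT values did not overlap, in opposite directions, and hold neither motif in this window. Each runs 5′ to 3′ toward the start on the gene's strand.
Psmb10, GRCm38.p6 chr8:105938393-105938642, minus strand: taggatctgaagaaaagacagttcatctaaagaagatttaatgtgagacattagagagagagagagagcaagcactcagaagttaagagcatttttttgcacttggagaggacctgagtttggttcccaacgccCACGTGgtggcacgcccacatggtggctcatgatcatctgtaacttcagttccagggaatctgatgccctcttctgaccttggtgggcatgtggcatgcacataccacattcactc
Psmb5, GRCm38.p6 chr14:54617996-54618245, minus strand: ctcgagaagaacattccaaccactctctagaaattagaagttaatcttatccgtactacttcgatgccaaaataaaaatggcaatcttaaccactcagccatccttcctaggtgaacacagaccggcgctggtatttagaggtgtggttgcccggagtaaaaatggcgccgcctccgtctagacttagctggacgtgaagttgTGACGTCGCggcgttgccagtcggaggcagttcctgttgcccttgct
Psmd8, GRCm38.p6 chr7:29180674-29180923, minus strand: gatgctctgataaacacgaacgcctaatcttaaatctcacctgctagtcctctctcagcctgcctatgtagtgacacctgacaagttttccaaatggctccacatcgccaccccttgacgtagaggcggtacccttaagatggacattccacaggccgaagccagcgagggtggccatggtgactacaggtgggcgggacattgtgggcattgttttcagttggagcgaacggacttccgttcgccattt
Psmb4, GRCm38.p6 chr3:94886959-94887208, minus strand: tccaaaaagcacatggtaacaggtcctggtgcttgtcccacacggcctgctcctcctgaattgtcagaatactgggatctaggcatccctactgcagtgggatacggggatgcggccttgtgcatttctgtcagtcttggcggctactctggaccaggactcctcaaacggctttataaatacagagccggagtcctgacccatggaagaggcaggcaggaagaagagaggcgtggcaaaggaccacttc

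The KO and WT samples were compared to see which proteasome genes depend on Clock in parvalbumin-positive cells. No proteasome gene passed the test. Of the 12 tested member probes 0 had an adjusted p under 0.05 by limma, as had 0% of the 3347 tested probes. At an unadjusted p under 0.05 there was 1 member probe, that of Psmd8, higher in KO, against 5.92% of all tested probes in either direction, 3.02% higher and 2.9% lower in KO. Values are given below as normalised log2 signals, in the order WT replicates 1, 2 and 3, then KO replicates 1 and 3, and adjusted p-values are limma's over all 3347 probes. The exact permutation test of a single probe has 10 arrangements of the arrays and cannot give a two-sided p below 0.1. Wherever an array is left out below, the others were normalised anew. Such a value differs from the full fit through both the missing array and the changed normalization, which were not told apart.

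Of the alpha ring, Psma2 was the only gene with a tested probe. Psma2 read 7.96, 7.62 and 7.10 in WT and 7.93 and 6.80 in KO, on raw signals of 2506.7, 3108.9, 3062 and 3495.8, 2245.6. The arrays numbered 1 were high in both genotypes and KO replicate 3 was lowest, so the groups overlapped. The difference was -0.20 ± 0.37 (SE; 95% interval -1.07 to 0.68; limma adjusted p 0.921), and without KO replicate 3 it was 0.39.

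Among beta subunits, Psmb4, a structural subunit of the ring without protease activity, read 7.68, 7.44 and 7.28 in WT and 7.18 and 7.05 in KO. Both KO arrays lay below all 3 WT arrays. The means were 7.47 ± 0.20 (SD, n = 3) and 7.12 ± 0.088 (SD, n = 2), a difference of -0.35 ± 0.18 (SE; 95% interval -0.77 to 0.07), which did not pass (limma adjusted p 0.801). Psmb4 had a detection p under 0.05 on each WT array and on KO replicate 1. Without WT replicate 1, the other arrays normalised anew, its difference was -0.13, and without any other array it was -0.51 to -0.31.

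Psmb5 and Psmb7 encode protease subunits of the standard core, the first with chymotrypsin-like and the second with trypsin-like activity. Psmb5, shown above with its response element letters, read 6.99, 7.07 and 7.21 in WT and 7.14 and 7.41 in KO, and was detected on WT replicate 3 and KO replicate 3 alone. The groups overlapped, and the difference was 0.18 ± 0.17 (SE; 95% interval -0.21 to 0.58; limma adjusted p 0.820). With WT replicate 1 left out Psmb5 differed by 0.071, and with KO replicate 1 left out by 0.35. Psmb7 had 2 tested probes of 4. Probe 1, detected on all 5 arrays, read 8.03, 8.18 and 8.02 in WT and 8.19 and 7.82 in KO. These groups overlapped too, with a difference of -0.069 ± 0.18 (SE; 95% interval -0.49 to 0.35; limma adjusted p 0.940). Probe 2, detected on WT replicate 1 and KO replicate 1, read 7.16, 7.04 and 7.08 in WT and 7.17 and 7.24 in KO, and differed by 0.11 ± 0.15 (SE). The probes of Psmb7 thus pointed in opposite directions, each within its error.

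Psmb10, which replaces Psmb7 in the immunoproteasome, read 7.47, 7.35 and 7.32 in WT and 7.68 and 7.11 in KO. This probe was detected on every array but KO replicate 3, and the second Psmb10 probe on no array. KO replicate 1 was above and KO replicate 3 below all WT arrays, so the means of 7.38 ± 0.080 (SD, n = 3) and 7.40 ± 0.40 (SD, n = 2) were close (difference 0.013, 95% interval -0.47 to 0.49). Psmb10 is the detected member with the E-box letters.

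Of the ATPases, Psmc5 read 7.50, 7.35 and 7.09 in WT and 7.09 and 6.84 in KO. It was detected on WT replicates 1 and 2 and on neither KO array, where it is not well above background. Its KO level is therefore a bound, each KO array taken at no less than the lowest detected signal there. By that bound the WT mean was 1.07-fold above the KO mean. The bound takes in WT replicate 3, where Psmc5 was not detected, and leaves out sampling error, so it is no minimum difference. Psmc5 also passed the filter through WT arrays alone. The measured means were 7.31 and 6.97 (limma difference -0.34, 95% interval -0.79 to 0.10, adjusted p 0.801). WT replicate 3 and KO replicate 1 read nearly alike, so the groups overlapped. The unadjusted limma p of Psmc5 was 0.110. It was 0.0413 without background correction, 0.0391 on the authors' processed values and 0.0362 with a trended, robust variance, with KO lower each time. The limma adjusted p there was 0.774, 0.818 and 0.773. With the replicate block the unadjusted limma p was 0.160, and with age as a covariate 0.122.

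Psmd4, the ubiquitin receptor of the regulatory particle, was detected on all arrays with a detection p of 0. Its raw signals were 5204.5, 4429.8 and 4884.3 in WT and 5556.7 and 3711 in KO, and its normalised values 10.37, 9.19, 9.43 and 10.16, 9.0. In both genotypes the array numbered 1 was above every array with another number. The difference between genotypes was -0.083 ± 0.44 (SE; 95% interval -1.11 to 0.95; limma adjusted p 0.978), as the spread within each genotype, 0.62 (SD, n = 3) and 0.82 (SD, n = 2), was larger than the gap between them. Without WT replicate 1 the Psmd4 difference was 0.39, and without KO replicate 3 it was 0.51.

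Psmd8, a lid subunit of the regulatory particle, had the smallest p of the members in the fit described above, though not under every alternative. It read 7.18, 7.86 and 7.74 in WT and 8.24 and 8.15 in KO, on raw signals of 1806.4, 3230.1, 3575.2 and 3681.3, 3200.9. Both KO arrays lay above all 3 WT arrays, and WT replicate 1 was far below the other WT arrays. The means were 7.59 ± 0.36 (SD, n = 3) and 8.19 ± 0.057 (SD, n = 2), a difference of 0.60 ± 0.23 (SE; 95% interval 0.06 to 1.14; unadjusted p 0.0337, limma adjusted p 0.801). Without WT replicate 1, with the other arrays normalised anew, the Psmd8 difference was 0.14, and without any other array it was 0.62 to 0.81. With arrays scaled to a common median instead, the median over all tested probes was -0.39 and Psmd8 was at -0.27. Without background correction it was 0.18 (limma unadjusted p 0.0916) and on the authors' processed values 0.44 (limma unadjusted p 0.136). The unadjusted limma p of the 0.60 was 0.113 with a trended, robust variance and 0.0693 at the stricter detection filter. With age as a covariate the Psmd8 difference was 1.09 (limma unadjusted p 0.0040, adjusted p 0.743). The genotypes share an age only on the arrays numbered 1, so age and genotype are poorly separated. That fit leans on WT replicate 1, the low WT array, and does not strengthen the result. The second Psmd8 probe was detected on no array.

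The other members had intervals around 0. Psmd13, a lid subunit, read 7.52, 7.17 and 7.03 in WT and 7.45 and 6.91 in KO, high on both arrays numbered 1, with a difference of -0.061 (95% interval -0.61 to 0.48). Psmd14, the enzyme that cuts ubiquitin off the substrate, read 7.17, 7.21 and 7.18 in WT and 7.22 and 7.07 in KO. Its difference was -0.040 (95% interval -0.40 to 0.32), with KO replicate 3 alone below the WT range and not detected. Psmd2, a base subunit that docks ubiquitin carriers, read 7.30, 7.17 and 7.21 in WT and 7.23 and 7.20 in KO, both within the WT range. Its difference of -0.010 had a 95% interval of -0.36 to 0.34, so a change of that size in either direction is not excluded.

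**Figure D3:**
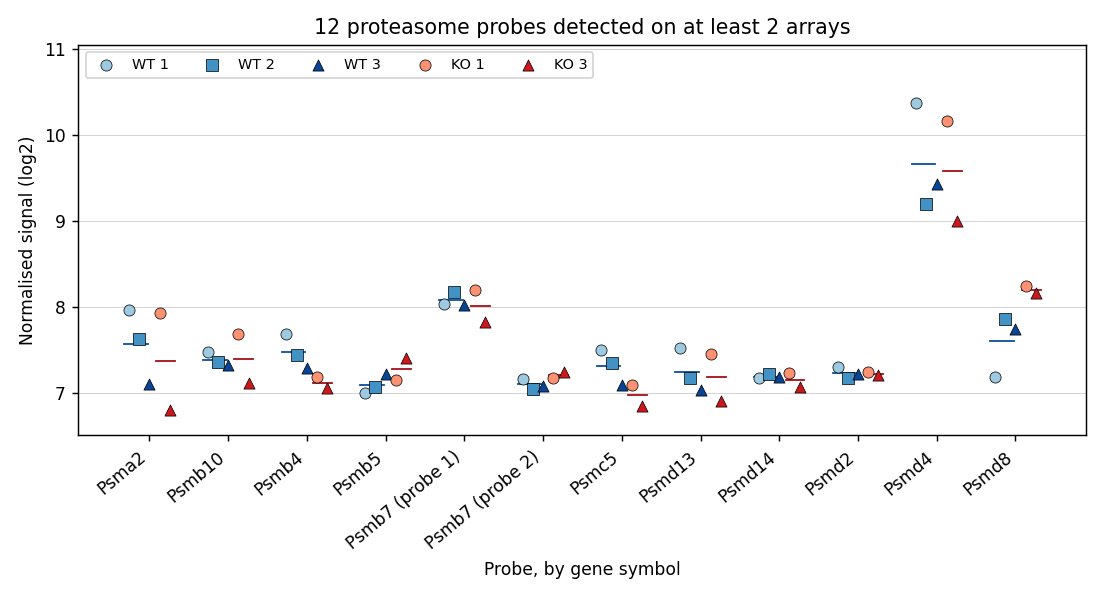
Normalised log2 signal of the 12 tested member probes on each array (WT blue, KO red; circles, squares and triangles are replicates 1, 2 and 3), with short lines at the group means. Psmd8 has both KO points above the WT points, Psmb4 both below, and Psmd4 and Psma2 are split by replicate number rather than by genotype. Under median scaling the Psmd8 difference was -0.27, beside a median of -0.39 over all tested probes.

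Over the 12 tested probes the KO and WT arrays did not overlap for 3, which is 25.0%, against 21.8% of all tested probes. KO lay above WT for Psmd8 and Psmb7 probe 2 (11.2% of all tested probes) and below WT for Psmb4 (10.6% of all). The median difference was -0.051 over the 12 probes, 8 of them lower in KO, and 0.0048 over all tested probes, 49.4% of them lower. These 12 passed a filter on signal, so the 80 probes were summarised without it: the median was -0.028 with 47 lower and 33 higher, beside 0.00082 over all 45281 probes, 49.4% of them lower. By role, the median over all probes, detected or not, was -0.040 for 11 alpha, 0.019 for 20 beta, -0.057 for 9 ATPase, -0.028 for 30 other regulatory and -0.058 for 6 activator probes. The 68 untested probes ranged from -0.24 to 0.30 in difference, and 62 of them were detected on no array.

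**Figure D4:**
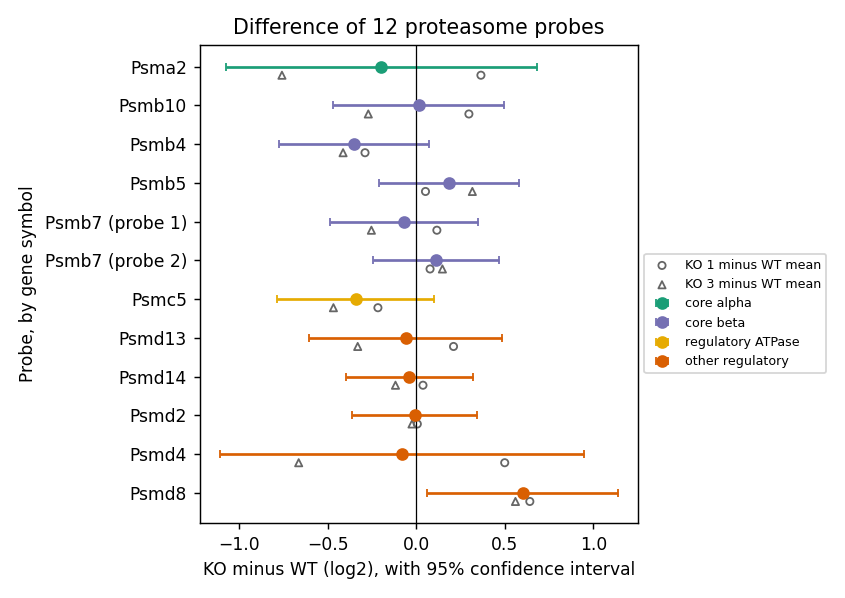
KO minus WT difference on the log2 scale for the 12 tested probes (filled points, coloured by class, with limma's 95% interval); open circles and triangles give KO replicates 1 and 3 minus the WT mean. The interval of Psmd8 alone lies above 0. For Psma2, Psmd4, Psmb10, Psmb7 probe 1, Psmd13, Psmd14 and Psmd2 the open symbols fall on opposite sides of 0.

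The KO arrays differed from each other for these genes. On KO replicate 1 the median of the 12 probes lay 0.097 above the WT mean, and on KO replicate 3 it was at -0.26, while over all tested probes the medians were 0.0069 and -0.026. Single genes went further: Psma2 was at 0.36 on KO replicate 1 and -0.76 on KO replicate 3, Psmd4 at 0.50 and -0.66, and Psmb10 at 0.30 and -0.27. Psmd8 (0.64 and 0.56) and Psmb4 (-0.29 and -0.41) had like values on both. Without KO replicate 1 the median difference of the 12 probes was -0.29, and without KO replicate 3 it was 0.10. The 12 tested probes of the 8 detected parvalbumin interneuron markers averaged 8.56 to 8.65 in WT, 8.49 on KO replicate 1 and 7.95 on KO replicate 3. Pvalb itself read 8.88, 9.18 and 8.79 in WT and 8.22 and 7.19 in KO. Its difference of -1.24 (limma adjusted p 0.801) was the lowest of all tested probes. The part of these markers in the proteasome values was not tested, and in bulk samples fewer cells of a type and less RNA per cell cannot be told apart.

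A split by replicate number was visible in several members. For 5 of the 12 probes (41.7%), those of Psma2, Psmb10, Psmd2, Psmd4 and Psmd13, both arrays numbered 1 read above all the other 3 arrays, against 10.8% of all tested probes. Both samples numbered 1 were taken at 61 days and the others at 60 or 64, and the labels do not say that a number marks a shared litter or day. This pattern was chosen for description after the values were seen and has no test.

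Genes that work with the proteasome were followed in 3 lists of 31 genes, of which 20 had a named probe and 9 a tested one. None of their 10 tested probes passed limma's test in either direction (0% of all tested probes did). In KO 8 were lower and 2 higher, where 49.4% of all tested probes were lower. These probes passed a filter on signal, Nfe2l1 and Pomp through WT arrays alone. The count of 8 thus depends partly on that filter, and no count without it was made. The parvalbumin interneuron markers were lower too, on 11 of 12 tested probes with a median of -0.37, and their part in these values was not tested. Of the ubiquitin precursors and activating enzymes only Uba6 had a named probe, and it was not detected. Nfe2l1, the transcription factor that raises proteasome genes when the proteasome is short, read 7.99, 7.81 and 7.31 in WT and 7.12 and 6.95 in KO. All 3 WT arrays detected Nfe2l1 and neither KO array did. By the background bound its WT mean was 1.40-fold above the KO mean in these samples, with sampling error left out. Nfe2l1 passed the filter through its WT arrays alone, so the bound is no separate support for a difference. The measured means were 7.70 and 7.03 (limma difference -0.67 ± 0.23 (SE), 95% interval -1.20 to -0.13, adjusted p 0.801). Without WT replicate 1, with the other arrays normalised anew, the Nfe2l1 difference was -0.25.

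Pomp, the chaperone that matures the core, followed the same order of arrays. It read 7.65, 7.35 and 7.22 in WT and 7.17 and 6.90 in KO, and was detected on all WT arrays and no KO array. By the bound its WT mean was 1.14-fold above the KO mean in these samples, with sampling error left out. Pomp too passed the filter through its WT arrays alone, so the bound is no separate support for a difference. The measured means of Pomp were 7.41 and 7.03 (95% interval of the difference -0.83 to 0.08, limma adjusted p 0.801). Without WT replicate 1, with the other arrays normalised anew, the Pomp difference was -0.15 in place of -0.37. Psmg2, an assembly chaperone of the alpha ring, differed by -0.075 and was high on WT replicate 3 alone, at 8.21.

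Of the ubiquitin carriers and deubiquitinases, Ubqln1, a carrier of tagged proteins, read 8.31, 8.56 and 8.17 in WT and 8.19 and 7.65 in KO, a difference of -0.43 with overlapping groups. Leaving out WT replicate 1 or KO replicate 3 brought Ubqln1 to -0.17, leaving out KO replicate 1 to -0.77, and omitting the background correction to -0.12. WT replicate 1 itself read between the other WT arrays, and the rest were normalised anew without it. The shift to -0.17 is therefore not the effect of its reading alone. Uchl5, a deubiquitinase of the regulatory particle, differed by -0.40, Rad23b, another carrier, by -0.31 and -0.14 on its 2 probes, and Vcp, the ATPase that extracts tagged proteins, by -0.12. Usp14, which trims ubiquitin at the proteasome, differed by 0.060 and the neuronal Uchl1 by 0.090. None of these passed (smallest limma adjusted p 0.801). Fits without a single array, the rest normalised anew, moved several of them by more than 1.5 times. Without WT replicate 1 Uchl5 was at -0.11, Rad23b at -0.073 and -0.088 on probes 1 and 2, and Vcp at -0.040. Without KO replicate 3 they were at -0.20, -0.17, -0.010 and -0.0068, and without KO replicate 1 at -0.68, -0.50, -0.30 and -0.24. Without WT replicate 3 they were at -0.66, -0.51, -0.22 and -0.19. Usp14 took either sign, from -0.29 without KO replicate 1 to 0.40 without KO replicate 3, and Uchl1 was at 0.20 without KO replicate 1.

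**Figure D5:**
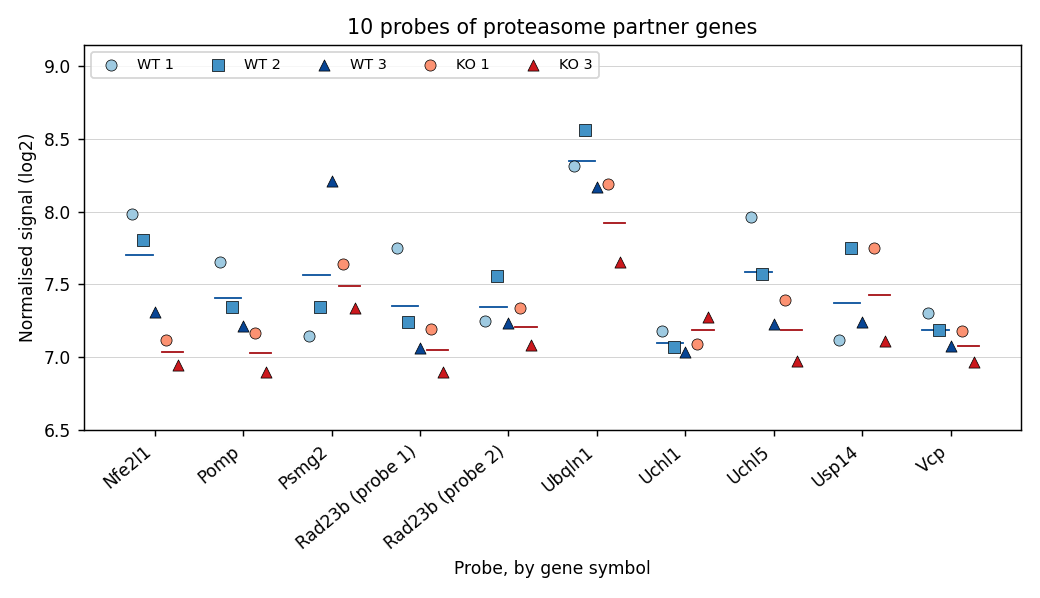
Normalised log2 signal of the 10 tested probes of proteasome partner genes on each array (WT blue, KO red; symbols mark the replicate number; short lines are group means). Nfe2l1 and Pomp have both KO points below all WT points, at or under the lowest detected signal of those arrays.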

How the data were processed

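Total RNA was amplified and biotin-labelled, per the labels' protocols, and read on single-colour Illumina bead arrays. The table of raw values deposited by the authors gives, per the file headers, the signal of 45281 probes on 5 arrays, each with its detection p-value. The signals are intensity values on a linear scale that the authors deposited without normalization. A second deposited table holds the authors' processed intensity values, whose steps no label or header states. GenomeStudio was used, per the submitters' processing notes. The number of arrays limits the precision.

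Gene symbols came from the supplied platform annotation, which can be old. Partner and marker genes were matched through Entrez numbers to the RefSeq table of GRCm38.p6, and gene coordinates were not used. Normalization used the neqc function of limma 3.58.1 (R 4.3.3), with normexp correction set by the detection p, quantile normalization and log2 after an offset of 16. The 3347 probes detected (p under 0.05) on 2 or more arrays were tested with lmFit and eBayes, KO against WT, with a two-sided p adjusted over all of them by Benjamini-Hochberg and a threshold of 0.05. The test was run on simulated data before use.

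Every member gene with a tested probe was named with its values, and members without one were given by counts and ranges; partner genes with a tested probe were named with their differences. The members and lists were chosen with earlier results of these data known. Replicate numbers came from the sample titles. Alternatives changed the background correction, the scaling, the offset, the filter, the variance model, the source (the authors' processed values), the covariates (replicate block, age) and the samples, each left out in turn with the rest normalised anew.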

Additional observations from a re-analysis of the deposited data

How the results depend on the processing

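No proteasome probe passed the threshold under any of the 14 alternatives. Over all tested probes 0 passed, except without KO replicate 1, where the count was 27 (range 0 to 27 over the samples left out), none of them a proteasome probe. A lone KO array is taken in these fits to vary as the WT arrays do. At a detection p under 0.01, 5 in place of 12 proteasome probes were detected on at least 2 arrays, and 9 to 11 when a sample was left out.

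Under median scaling the median of all tested probes moved from 0.0048 to -0.39, that of the 80 proteasome probes to -0.11 and that of the 12 tested ones to -0.51. Leaving out a sample gave -0.29 to 0.10 for the 12 and -0.040 to -0.00032 for the 80. Median scaling also turned the sign of Psmd8 (-0.27), Psmb5 (-0.19), Psmb7 probe 2 (-0.26), Psmb10 (-0.51), Uchl1 (-0.29) and Usp14 (-0.31), of which Psmd8, Psmb5, Psmb7 probe 2, Uchl1 and Usp14 stayed above the shifted median. Without background correction Psmb10 was at -0.025 and Psmg2 at 0.0029, and on the authors' processed values at -0.10 and 0.038. With age as a covariate Psmb7 probe 1 was at 0.057, Psmd14 at 0.0070, Psmg2 at 0.47, Rad23b probe 2 at 0.022 and Uchl1 at -0.040, while Psmd8 moved from 0.60 to 1.09, Psmd4 from -0.083 to -0.67, Rad23b probe 1 from -0.31 to -0.71 and Usp14 from 0.060 to 0.48. The genotypes share an age only on the arrays numbered 1, so age and genotype are poorly separated in that fit. The cause was not tested.

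Leaving out each sample gave ranges that crossed 0 for Psma2 (-0.84 to 0.39), Psmb10 (-0.30 to 0.32), Psmb7 probe 1 (-0.28 to 0.12), Psmd13 (-0.18 to 0.23), Psmd14 (-0.13 to 0.040), Psmd2 (-0.041 to 0.016), Psmd4 (-0.65 to 0.51), Psmg2 (-0.25 to 0.28) and Usp14 (-0.29 to 0.40). Psmb5, Psmb7 probe 2, Psmc5, Psmd13 and Uchl1 failed the filter in some of these fits and have no value there.

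With the replicate block, 0 probes passed, Psmd8 differed by 0.73 (limma adjusted p 0.817) and Psmb10 by -0.0023, while Psmd4 was at -0.32 (limma unadjusted p 0.172), Usp14 at 0.25 and Psmg2 at -0.19. Deviations from the group mean correlated at 0.20 between the arrays numbered 1 and at 0.13 between those numbered 3. Between WT replicate 2 and KO replicate 1 the correlation was -0.10. The deviations of the KO arrays are equal and opposite by construction, so these values are not separate signs of pairing. With 2 shared numbers and no label on what they mean, the pairing was not used.

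Most proteasome probes lay near background, so changes in those genes could not be measured.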
